A study of Homo sapiens with 66 samples.

Results

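Binding of the hypoxia-inducible factors HIF-1α, HIF-2α and HIF-1β was compared between 6 h and 16 h at 0.5% oxygen in HKC-8 cells, a human kidney proximal tubule line. The comparison used 12 chromatin immunoprecipitation sequencing (ChIP-seq) libraries of the 66 samples in the series, 2 replicates for each of 3 antibodies at each time. The cells carried no engineered change, and every library came from cells in hypoxia, so no normoxic group entered. The antibodies were PM14 against HIF-1α, PM9 against HIF-2α and NB100-110 against HIF-1β. The question was which sites were bound at both times and which at one time only. Each library came with a list of peaks called by MACS, a program that marks places where reads exceed a control. For each antibody, overlapping peaks of the 4 lists were merged into regions. A site was kept if both replicates had a peak at both times, gained if both replicates had one at 16 h but not both at 6 h, and lost in the reverse case. This gave 302 HIF-1α sites, 424 HIF-2α sites and 892 HIF-1β sites from 4337, 4039 and 3623 merged regions. Sources name the duplicates independent experiments without saying whether the cultures were separate, so p-values measure the spread between these libraries.

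HIF-1α and HIF-2α are oxygen-regulated subunits that are destroyed after prolyl hydroxylation when oxygen is plentiful. In hypoxia each pairs with HIF-1β, which is made constitutively, and the dimer binds a short core motif, the hypoxia response element (HRE), here ACGTG or GCGTG on either strand. HIF-1 is best known for driving glycolytic enzymes from promoters, and HIF-2 more often acts from distant elements, where motifs of the AP-1 factors are common. AP-1 was searched as TGACTCA or TGAGTCA. An HRE core can share bases with an AP-1 motif, and both were then counted.

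Sequences are shown for the best-ranked kept, gained and lost site of each antibody, to let the motif content of the 3 classes be read directly. Each is 201 bases of GRCh37 around the peak centre, plus strand, with HRE cores, AP-1 motifs and a tRNA-gene motif described further on in capitals. Where the window of the best site touched an untranslated region, the next of the named sites is given. The gene is that of the nearest protein-coding start.
HIF-1α kept, chr15:93352347-93352547, FAM174B: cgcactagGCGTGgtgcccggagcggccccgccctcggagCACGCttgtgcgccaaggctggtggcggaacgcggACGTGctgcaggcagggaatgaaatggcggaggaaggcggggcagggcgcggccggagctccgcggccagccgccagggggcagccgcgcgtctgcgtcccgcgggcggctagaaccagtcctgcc
HIF-1α gained, chr19:11300417-11300617, KANK2: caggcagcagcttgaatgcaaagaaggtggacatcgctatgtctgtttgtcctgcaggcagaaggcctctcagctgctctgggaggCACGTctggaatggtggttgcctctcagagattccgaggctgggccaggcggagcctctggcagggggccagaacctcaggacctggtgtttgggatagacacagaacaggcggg
HIF-1α lost, chr16:57334431-57334631, PLLP: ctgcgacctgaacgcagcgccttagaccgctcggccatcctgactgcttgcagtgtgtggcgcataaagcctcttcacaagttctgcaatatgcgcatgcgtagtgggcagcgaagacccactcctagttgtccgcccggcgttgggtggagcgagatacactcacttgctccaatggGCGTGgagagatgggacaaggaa
HIF-2α kept, chr5:90576416-90576616, ARRDC3: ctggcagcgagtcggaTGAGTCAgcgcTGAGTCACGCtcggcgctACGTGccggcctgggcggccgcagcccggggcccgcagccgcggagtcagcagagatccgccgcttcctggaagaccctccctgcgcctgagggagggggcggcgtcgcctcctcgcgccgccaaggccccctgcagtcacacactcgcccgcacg
HIF-2α gained, chr17:36442718-36442918, MRPL45: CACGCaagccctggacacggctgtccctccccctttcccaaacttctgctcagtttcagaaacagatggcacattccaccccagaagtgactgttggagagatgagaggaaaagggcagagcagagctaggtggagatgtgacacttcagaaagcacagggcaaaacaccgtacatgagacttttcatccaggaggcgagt
HIF-2α lost, chr3:112366095-112366295, CCDC80: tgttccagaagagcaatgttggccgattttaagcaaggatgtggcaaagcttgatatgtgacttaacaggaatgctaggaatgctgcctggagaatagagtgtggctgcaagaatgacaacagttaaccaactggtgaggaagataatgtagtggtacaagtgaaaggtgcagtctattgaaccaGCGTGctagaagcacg
HIF-1β kept, chr19:34850171-34850371, GPI: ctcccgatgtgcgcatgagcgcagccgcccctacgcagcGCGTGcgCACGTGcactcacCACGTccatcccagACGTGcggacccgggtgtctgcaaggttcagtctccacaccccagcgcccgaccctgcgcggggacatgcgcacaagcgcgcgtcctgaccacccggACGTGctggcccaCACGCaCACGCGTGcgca
HIF-1β gained, chr12:71039490-71039690, PTPRB: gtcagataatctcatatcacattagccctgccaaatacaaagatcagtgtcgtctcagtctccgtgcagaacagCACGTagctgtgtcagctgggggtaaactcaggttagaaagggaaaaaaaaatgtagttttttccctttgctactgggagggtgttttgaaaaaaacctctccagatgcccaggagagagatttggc
HIF-1β lost, chr7:139025355-139025555, LUC7L2: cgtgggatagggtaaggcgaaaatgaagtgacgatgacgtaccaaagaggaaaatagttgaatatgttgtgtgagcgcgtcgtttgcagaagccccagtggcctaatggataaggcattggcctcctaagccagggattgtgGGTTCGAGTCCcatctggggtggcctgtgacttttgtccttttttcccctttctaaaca

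The kept windows held the most motifs. The HIF-1α window at FAM174B had 3 HRE cores and the HIF-1β window beside GPI had 9, counting overlapping cores on both strands. The HIF-2α window had 2 HRE cores and 2 AP-1 motifs, 1 of which shares its last bases with a core. The gained windows had 1 HRE core each, as did the lost HIF-1α and HIF-2α windows. The lost HIF-1β window had none and carried the tRNA-gene motif.

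The lists of the 12 libraries held 951 to 1793 peaks, 46 of which lay outside chromosomes 1 to 22, X and Y and were left out. The lowest score in any list was 50, and a score was compared only with others of its own list. Read depth is unknown from peak lists, so a peak missing from a list may lie just under the caller's limit. Median peak width ranged from 150 to 896 bp. It was 193 and 173 bp for HIF-1α at 6 h and 336 and 258 bp at 16 h, and for HIF-1β 238 and 494 bp at 6 h and 896 and 742 bp at 16 h. The part that depth or width played in the counts that follow was not tested.

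More sites were gained than lost with each antibody. HIF-1α had 123 kept, 139 gained and 40 lost sites, which were 2.84%, 3.2% and 0.922% of its merged regions. HIF-2α had 169 kept, 167 gained and 88 lost sites, or 4.18%, 4.13% and 2.18%. HIF-1β had 366 kept, 460 gained and 66 lost sites, or 10.1%, 12.7% and 1.82%. Of the sites in both 6 h replicates, 75.5% of 163 for HIF-1α (95% exact binomial interval 68.1% to 81.9%), 65.8% of 257 for HIF-2α (59.6% to 71.5%) and 84.7% of 432 for HIF-1β (81.0% to 88.0%) were kept. Seen from 16 h, the kept sites made up 46.9% of 262 with HIF-1α (40.8% to 53.2%), 50.3% of 336 with HIF-2α (44.8% to 55.8%) and 44.3% of 826 with HIF-1β (40.9% to 47.8%). These intervals cover counting error only. The kept share depended on requiring both replicates at 6 h. From replicate 2 alone 147 HIF-1α, 363 HIF-2α and 620 HIF-1β sites were kept and 1163, 1111 and 634 lost, and from replicate 1 alone 256, 232 and 455 were kept and 1232, 1174 and 809 lost.

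Many gained and lost sites had a peak in 1 library of the other time. Of the gained sites, 67 of 139 with HIF-1α (48.2%), 64 of 167 with HIF-2α (38.3%) and 266 of 460 with HIF-1β (57.8%) had no peak in either 6 h library. Of the lost sites, 12 of 40, 26 of 88 and 21 of 66 had no peak in either 16 h library. Many lay near the caller's limit of 50. The weaker of the replicates scored under 60 at 35.3% of gained and 52.5% of lost HIF-1α sites, at 33.5% and 45.5% of those of HIF-2α, and at 29.1% and 39.4% of those of HIF-1β. Scores just outside the limit are not in the lists. With only peaks of a score of at least 100, gained sites still outnumbered lost sites, at 55 to 6 with HIF-1α, 61 to 22 with HIF-2α and 177 to 38 with HIF-1β. The lists held 128 and 70 such HIF-1α peaks at 6 h and 224 and 123 at 16 h. For HIF-2α there were 125 and 183, then 174 and 277, and for HIF-1β 241 and 330, then 397 and 564. The part of these numbers in the order was not tested. Where a single replicate number defined the sites, the order for the isoforms turned. From replicate 2 alone HIF-1α had 802 gained and 1163 lost sites and HIF-2α 687 and 1111, and from replicate 1 alone 1054 and 1232, and 957 and 1174. HIF-1β then had 1167 gained and 634 lost sites, or 901 and 809. The excess of gained isoform sites was therefore found only for sites called in both replicates, and the 16 h replicates shared more of their lists than the 6 h replicates.

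**Figure D1:**
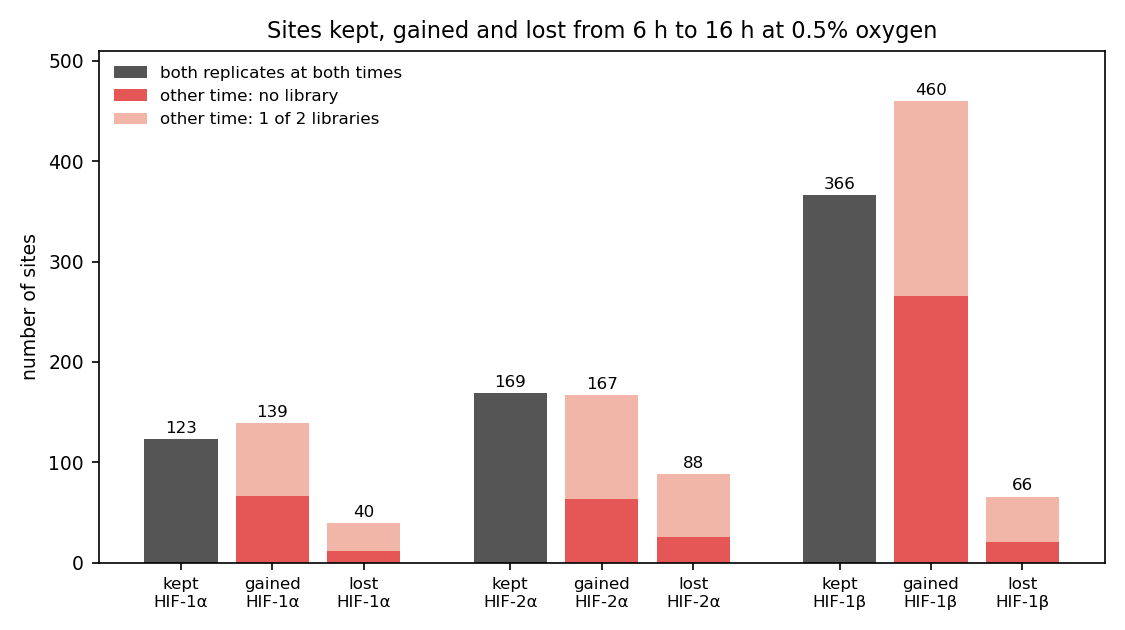
Number of sites kept, gained and lost between 6 h and 16 h for each antibody. Grey bars are sites with a peak in both replicates at both times, dark red is gained or lost sites with no peak in either library of the other time, and light red is those with a peak in 1 of its 2 libraries. Gained sites outnumber lost sites with each antibody, most of all with HIF-1β (460 to 66).

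The strongest peaks were nearly all kept. Within the upper 5% of each list by score, 86.5% to 100% of regions were kept sites (median of the 12 libraries 94.8%). From there the share fell, to a median of 59.9% between ranks of 5% and 10%, 27.4% between 10% and 25%, 5.19% between 25% and 50% and 1.32% in the lower 50%. With HIF-1β every region in the upper 5% was kept in 3 of the 4 libraries, and 98.9% in the second 16 h library. Kept sites had median percent ranks of 4.36 to 7.26 in the 4 HIF-1α libraries, 7.47 to 11.7 with HIF-2α and 11.7 to 16.8 with HIF-1β. Gained HIF-1α sites ranked at 19.8 and 20.6 in the 16 h libraries and lost ones at 23.7 and 25.2 in the 6 h libraries. Gained HIF-2α sites ranked at 25.1 and 30.6 and lost ones at 19.03 and 19.6. Gained HIF-1β sites ranked at 44.8 and 35.8 and lost ones at 36.0 and 33.9. Gained and lost sites thus had median ranks below those of the kept sites, which by definition had to be called in all 4 lists.

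**Figure D2:**
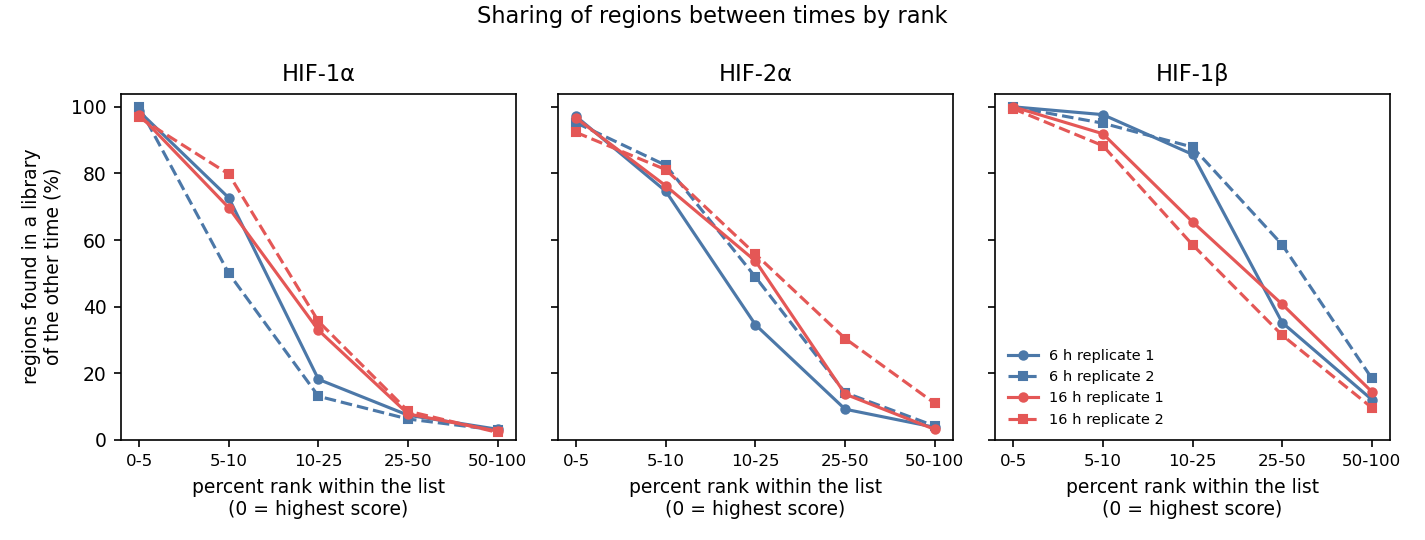
Share of regions that were also found in a library of the other time (mean over its 2 libraries), by percent rank of the region within each list, for the 12 libraries. Among the upper 5% the share is 92.3% to 100%, and in the lower 50% it is 2.22% to 18.4%.

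The order of the kept sites was shared between times with HIF-1α, and less so with HIF-2α and HIF-1β. Spearman's rho of ranks over the 123 kept HIF-1α sites was 0.797 between the 6 h replicates, 0.868 between the 16 h replicates and 0.744 to 0.823 between times. Over the 169 kept HIF-2α sites it was 0.627 and 0.738 within a time and 0.504 to 0.660 between times. Over the 366 kept HIF-1β sites it was 0.631 and 0.795 within a time and 0.421 to 0.642 between times. The values between times reached those of the 6 h replicates with each antibody, the 16 h replicates were the most alike, and HIF-1β 6 h replicate 2 had the lowest values against 16 h (0.421 and 0.462). These are descriptions across sites, which share libraries.

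Whole lists overlapped in the same pattern. The 6 h replicates shared 12.6% of the shorter list with HIF-1α, 18.8% with HIF-2α and 35.0% with HIF-1β, the lowest of the 6 pairs of libraries each time. The 16 h replicates shared 27.8%, 32.0% and 61.1%. Lists of different times shared 13.5% to 19.5%, 19.6% to 34.6% and 36.9% to 50.04%. Averaged over the antibodies, overlap within a time exceeded that between times by 2.66 percentage points (exact permutation test over 27 pairings of the libraries, one-sided, p = 0.0741, adjusted over 5 tests p = 0.0833, smallest possible p 0.0370). With HIF-2α alone the difference was -0.55 points. Lists cut to equal length gave 3.38 points and peaks of a score of at least 100 gave 5.65 points, both with an exact p of 0.0370. Of the regions with a peak in exactly 2 libraries, the share of one time averaged 52.5% (p = 0.0741, adjusted p = 0.0833). These were mostly 16 h pairs, 67 against 12 6 h pairs of 149 such regions with HIF-1α, 64 against 26 of 227 with HIF-2α and 266 against 21 of 443 with HIF-1β.

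The leading kept sites lay at genes of glycolysis and of the hypoxic response. The first HIF-1α site was rank 1 in all 4 libraries (chr10:99185436-99186072). It lies in an intron of RRP12, a ribosome biogenesis gene, and 0.178 kb from the start of PGAM1, a glycolytic enzyme. It also had a peak in all 8 HIF-2α and HIF-1β libraries of the comparison. The second, at ANKRD37, a known HIF-1 target (chr4:186317112-186318195, intron), ranked 2, 2, 3 and 5 in 6 h replicates 1 and 2 and 16 h replicates 1 and 2. The third, at ENO1, which encodes enolase (chr1:8938337-8939645, untranslated region), ranked 5, 3, 2 and 4. The fourth, in an intron of FAM174B 0.581 kb from its start (chr15:93352126-93352815), ranked 6, 4, 4 and 2 and had no HIF-2α peak at either time. All 4 stayed within the first 6 ranks at both times.

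The leading HIF-2α sites lay farther from promoters and ranked less evenly. The first was 103 kb from ARRDC3, an arrestin-domain gene (chr5:90575928-90577066), and ranked 2, 5, 1 and 1. The second lay in an intron of FRMD4A (chr10:14438866-14439872) and ranked 12, 1, 2 and 2. The third lay in an intron of LOXL2, a lysyl oxidase that crosslinks collagen, 11.99 kb from its start, and ranked 5, 8, 11 and 5. The fourth was upstream of BHLHE40, a transcriptional repressor induced in hypoxia (chr3:5018963-5021604, 0.590 kb from its start), and ranked 14, 10, 3 and 4. All 4 held an AP-1 motif, and all but the one at BHLHE40 an HRE core. With HIF-1β the same promoters led as with HIF-1α. ENO1 ranked 2, 2, 1 and 1, ANKRD37 3, 1, 2 and 2, the RRP12 and PGAM1 site 1, 3, 4 and 3, and a site beside GPI, glucose-6-phosphate isomerase (chr19:34849713-34850768), 5, 5, 10 and 5.

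Sites near known hypoxia genes were mostly kept. Of 82 genes on the hypoxia lists, 45 had a HIF-1α site within 10 kb of a start (34 kept, 8 with a gained and no kept site, 3 with a lost site only), 26 a HIF-2α site (20, 5 and 1) and 51 a HIF-1β site (42, 7 and 2). Among all 19794 protein-coding genes the counts were 273 (118, 125 and 30), 162 (63, 70 and 29) and 566 (239, 295 and 32). Over the 3 antibodies, 53 of the 82 genes had a site and 43 had a kept one. Of the genes with a gained site only, most had a peak in 1 of the 6 h libraries. No peak in either was found for 2 of 5 such genes with HIF-2α (PGK1 and CA9) and 4 of 7 with HIF-1β (PDK3, CITED2, CA9 and INSIG2). None of the 8 genes of the liver identity list had a site with any antibody. The share over all protein-coding genes was 1.38% with HIF-1α, 0.818% with HIF-2α and 2.86% with HIF-1β. A list of 8 genes is too short to differ from that.

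Glycolysis was the longest list. Of its 18 genes, 12 had a kept HIF-1α site, 1 a gained and 1 a lost one, and with HIF-1β the counts were 15 kept, 0 gained and 1 lost. With HIF-2α 6 were kept, 3 gained and 0 lost. GAPDH, the dehydrogenase of the pathway, ranked 7, 15, 8 and 9 with HIF-1α. PFKFB3, which makes an activator of phosphofructokinase, ranked 15, 12, 13 and 16. HK2, the inducible hexokinase, ranked 29, 37, 39 and 66. GAPDH and PFKFB3 stayed within the first 16 ranks at both times, and HK2 stood lower in both 16 h lists. The glucose transporter SLC2A1 counted as lost with HIF-1α because 16 h replicate 2 had no peak, yet it ranked 61 and 81 at 6 h and 81 in 16 h replicate 1. Its HIF-1β site at the same promoter was kept at ranks 42, 190, 57 and 379. At PGK1, phosphoglycerate kinase, HIF-1α was kept (17, 24, 43 and 38) while HIF-2α had no 6 h peak and ranked 815 and 626 at 16 h. The gained HIF-2α site thus stood in the lower part of lists of 1191 and 1050 peaks.

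Pyruvate, lactate and glycogen genes behaved likewise. PDK1, a kinase that inhibits pyruvate dehydrogenase, was kept with all 3 antibodies and ranked 14, 6, 10 and 6 with HIF-1α. LDHA, lactate dehydrogenase, ranked 58, 47, 29 and 23, and the lactate exporter SLC16A3 10, 10, 6 and 7. PDK3 had only a gained HIF-1β site, at ranks 467 and 1150. Of the glycogen genes, PPP1R3C, a glycogen-targeting phosphatase subunit, was kept with all 3 antibodies (HIF-1α ranks 25, 26, 17 and 18), and the branching enzyme GBE1 counted as gained with HIF-1α at ranks 118 in 6 h replicate 1, none in 6 h replicate 2, and 87 and 157 at 16 h.

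Genes of pH control differed from these with HIF-2α and HIF-1β, though few had a site. The lipid list, described below, had 0 genes with a kept HIF-1α site. CA9, carbonic anhydrase 9, had a kept HIF-1α site (ranks 189, 881, 138 and 136), and the same promoter was gained with HIF-2α (no 6 h peak, ranks 638 and 539) and was the best-ranked gained HIF-1β site (chr9:35673423-35674343, no 6 h peak, ranks 82 and 121). CA12, carbonic anhydrase 12, had a gained HIF-1β site with a peak in 6 h replicate 1. Of the 4 genes on the list, none had a kept HIF-2α or HIF-1β site.

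**Figure D3:**
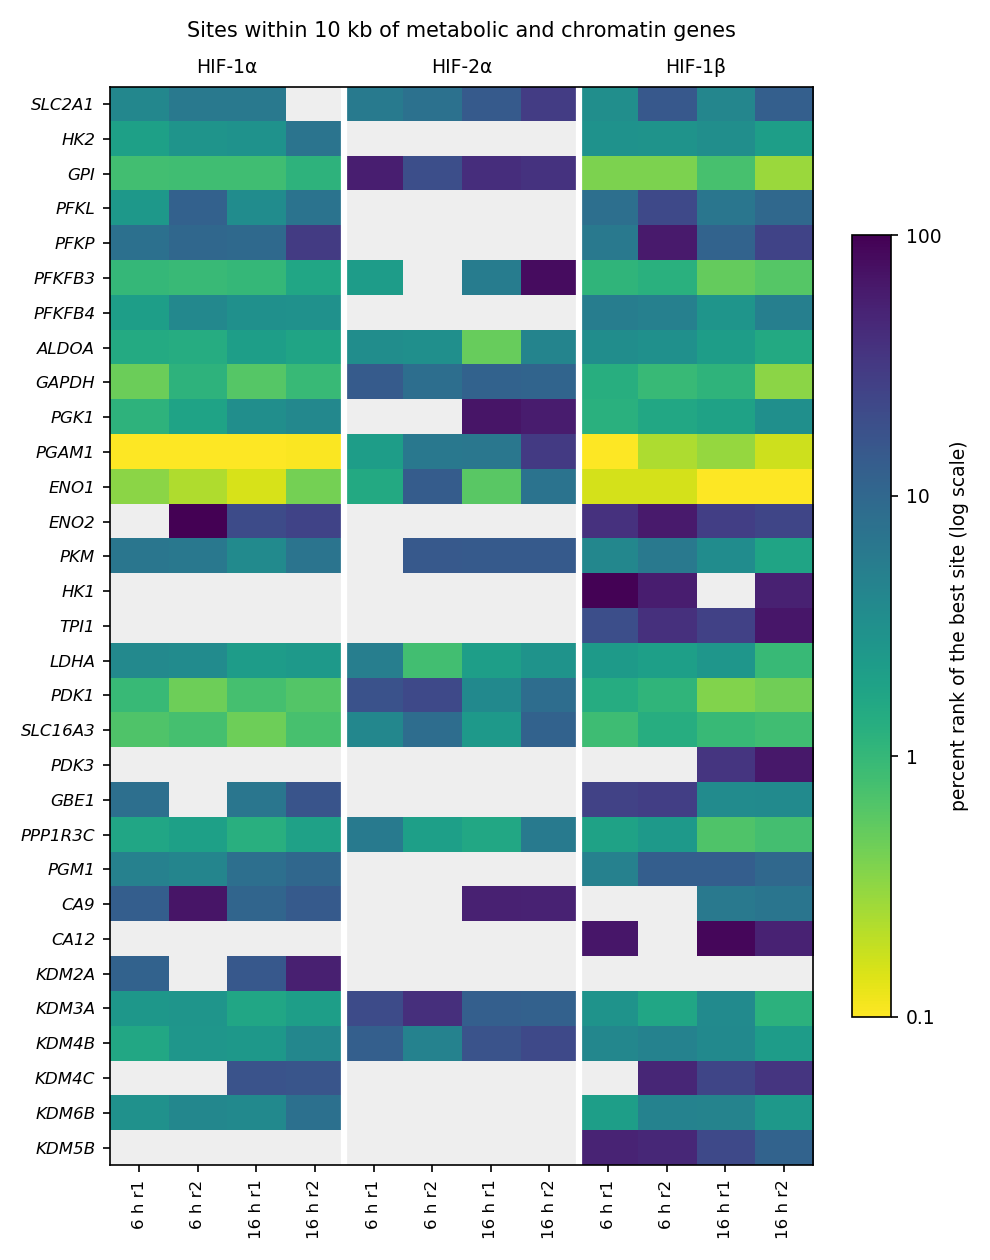
Percent rank of the best site within 10 kb of the start of genes of glycolysis, pyruvate, lactate, glycogen, pH control and histone demethylation, in each of the 12 libraries (r1 and r2 are the replicates). Yellow marks the top of a list on a log scale and grey marks that no site was called. PGAM1 is rank 1 in all 4 HIF-1α libraries, and CA9 has HIF-2α and HIF-1β ranks at 16 h only.

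Histone demethylase and collagen-modifying genes had sites of all 3 antibodies. Of 6 demethylase genes, KDM3A, KDM4B and KDM6B had kept HIF-1α sites, KDM2A and KDM4C gained ones. KDM4C had no HIF-1α peak at 6 h and ranked 222 and 153 at 16 h. KDM3A and KDM4B also had kept HIF-2α sites. All 4 collagen genes with a site, the prolyl hydroxylases P4HA1 and P4HA2 and the lysyl hydroxylases PLOD1 and PLOD2, were kept with HIF-1α and with HIF-1β, and P4HA1 and PLOD2 with HIF-2α too. In the stress and mitophagy list, BNIP3 and BNIP3L, which mark mitochondria for removal, were kept with HIF-1α, at ranks 9, 14, 12 and 15 for BNIP3. CCNG2 and MXI1 counted as gained with HIF-1α, each with a peak in 6 h replicate 1. At the same promoters HIF-1β was kept at CCNG2 (ranks 220, 133, 344 and 265) and counted as lost at MXI1 (337, 445 and 429, with no peak in 16 h replicate 2).

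Of 12 feedback genes 2, of 10 secreted and vascular genes 4, and of 5 lipid genes 3 had a HIF-1α site. EGLN1, the prolyl hydroxylase that marks HIF-α for destruction, was kept with HIF-1α (ranks 23, 31, 24 and 84) and with HIF-1β, and counted as lost with HIF-2α, where it ranked 505 and 420 at 6 h, 172 in 16 h replicate 1 and was absent from replicate 2. ADM, which encodes the vasodilator adrenomedullin, was kept with all 3 antibodies, with a HIF-1α rank of 894 in 16 h replicate 2 against 67 to 84 in the others. ANGPTL4, a secreted lipase inhibitor, had a gained HIF-2α site only. In the lipid list, HILPDA and PLIN2, both lipid droplet proteins, counted as lost with HIF-1α, and each had a peak in 16 h replicate 1 at ranks 120 and 387. Each of the 3 list genes that counted as lost with HIF-1α was missing from 16 h replicate 2 only, the library with the fewest HIF-1α peaks (950).

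The best-ranked gained sites with no 6 h peak stood well below the leading kept sites. For HIF-1α they were 0.047 kb from the start of SOS1, a Ras exchange factor (chr2:39351280-39351829, ranks 129 and 71 at 16 h), in an intron of KANK2 (chr19:11300293-11300810, ranks 91 and 112) and in an intron of ARID3A (chr19:940895-941550, ranks 92 and 116). All 3 held an HRE core. HIF-1β had a peak in both 16 h libraries at all 3, and in 0, 1 and 2 of the 6 h libraries. For HIF-2α the first was 10.2 kb from MRPL45 (chr17:36442388-36443248, ranks 43 and 32), where HIF-1α and HIF-1β had a peak in all 8 libraries of both times. The second was 606 kb from CITED2, an inhibitor of HIF transactivation (chr6:140301608-140302374, ranks 208 and 112), and the third 47.4 kb from AZIN1 (ranks 155 and 172). For HIF-1β, after CA9, they lay in introns of PTPRR (chr12:71039103-71040077, ranks 182 and 163) and SUMF1 (chr3:4458260-4459217, ranks 197 and 258).

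An HRE core was held by 77.5%, 54.5% and 68.2% of all lost HIF-1α, HIF-2α and HIF-1β sites. Among all gained sites the shares were 87.1%, 73.7% and 75.2%. The 9 named gained sites all held one. Of the 9 best-ranked lost sites with no 16 h peak 4 did, and the difference was not tested. For HIF-1α they were 15.9 kb from PLLP (chr16:57334347-57334718, ranks 200 and 93 at 6 h), 228 kb from CTNND2 (chr5:12132196-12132597, a mean percent rank of 12.997 at 6 h) and 0.040 kb from the start of RPN1 (chr3:128399438-128400142, ranks 382 and 84). HIF-1β had a peak at the first in all 4 libraries and at the second in none. For HIF-2α they lay in introns of CCDC80 (chr3:112366069-112366374, ranks 86 and 168) and SGSM2 (chr17:2262903-2263321, ranks 83 and 271), and in an intron on chromosome 16 (85429050 to 85429506, ranks 105 and 203). For HIF-1β they were 0.350 kb from a start of LUC7L2 (chr7:139025082-139025725, ranks 148 and 215), 0.921 kb from ANG (chr14:21150752-21151780, ranks 354 and 210) and 7.07 kb from PER1, a clock gene (chr17:8041946-8042596, ranks 426 and 153). No HIF-1α or HIF-2α library of the comparison had a peak at these 3.

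An HRE core was less frequent at lost than at kept and gained HIF-2α sites, and for HIF-1α and HIF-1β the intervals of the classes overlapped. With HIF-1α an HRE core lay within 100 bp of the centre at 91.9% of kept (95% interval 85.6% to 96.0%), 87.1% of gained (80.3% to 92.1%) and 77.5% of lost sites (61.5% to 89.2%). With HIF-2α the shares were 73.4% (66.0% to 79.9%), 73.7% (66.3% to 80.2%) and 54.5% (43.6% to 65.2%). With HIF-1β they were 74.6% (69.8% to 79.0%), 75.2% (71.0% to 79.1%) and 68.2% (55.6% to 79.1%). Windows of the same length 2 kb to either side of all peaks held an HRE core in 21.9% of cases and an AP-1 motif in 3.34%. The interval of the lost HIF-2α sites lay under those of the kept and gained sites. AP-1 motifs were at 9.76%, 15.8% and 2.50% of kept, gained and lost HIF-1α sites, 23.1%, 21.0% and 21.6% of HIF-2α sites and 14.8%, 15.2% and 16.7% of HIF-1β sites, and within each antibody the intervals overlapped.

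The isoforms kept their distance from promoters in each class. A centre within 1 kb of a protein-coding start was found at 61.8%, 59.0% and 52.5% of kept, gained and lost HIF-1α sites and at 16.6%, 12.6% and 14.8% of HIF-2α sites. Median distances to a start were 0.286, 0.324 and 0.572 kb for HIF-1α and 21.3, 17.8 and 24.9 kb for HIF-2α. HIF-1β lay between, with 35.2%, 37.2% and 34.8% within 1 kb. Gained sites of an isoform thus resembled its own kept sites in position. Of 139 gained HIF-1α sites, 20 overlapped a kept, 11 a gained and 2 a lost HIF-2α site. Of 167 gained HIF-2α sites, 16 overlapped a kept, 11 a gained and 1 a lost HIF-1α site. These counts were not set against a background.

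Over whole lists, promoter peaks and peaks with an HRE core made up a larger share at 16 h, while the isoform lists themselves were shorter. The share within 1 kb of a start was 20.3% and 13.6% for HIF-1α at 6 h and 34.5% and 22.8% at 16 h, or 16.9% ± 4.74 and 28.7% ± 8.25 (mean ± SD, n = 2). For HIF-2α it was 8.50% and 8.01% at 6 h and 11.1% and 9.43% at 16 h, and for HIF-1β 19.5% and 20.6% at 6 h and 34.4% and 26.9% at 16 h. The times did not overlap with any antibody. The mean difference was 8.12 percentage points (exact permutation test within antibody, two-sided, p = 0.00926, the smallest it can give, adjusted p = 0.0231). Without HIF-1α 6 h replicate 2 it was 7.01 points (exact p = 0.0648), and with lists of equal length 7.85 points (exact p = 0.0648). The HRE share was 40.0% and 38.4% for HIF-1α at 6 h against 55.9% and 46.4% at 16 h. It was 37.5% and 39.9% against 47.0% and 52.0% for HIF-2α, and 51.7% and 56.7% against 63.2% and 61.5% for HIF-1β. This too separated the times with each antibody, with a mean difference of 10.3 points (p = 0.00926, adjusted p = 0.0231, same exact test). AP-1 motifs differed by 2.51 points (exact p = 0.0833, adjusted p = 0.0833), and the replicate block gave p = 0.0312 for the same value.

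These differences were not found among the highest scores. With peaks limited to scores from 100 upward, the mean difference was -0.89 points for promoters (exact permutation p = 0.741) and -2.17 points for HRE cores (p = 0.537). In that range 91.4% and 88.6% of HIF-1α peaks held an HRE core at 6 h (128 and 70 peaks) and 85.7% and 87.0% at 16 h (224 and 123 peaks). HIF-1β had 241 and 330 such peaks at 6 h and 397 and 564 at 16 h, which did not overlap, and HIF-2α had 125 and 183, then 174 and 277, which did. In the upper 50% of each list by score the mean promoter and HRE differences kept their direction and their side of the threshold. With HIF-1β the HRE shares of the times overlapped there, at 68.2% and 71.5% at 6 h and 71.2% and 71.3% at 16 h. With HIF-1α and HIF-2α they did not overlap. With 2 libraries against 2 in a single antibody the smallest p is 0.333, so this test could not pass the threshold for an antibody alone.

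**Figure D4:**
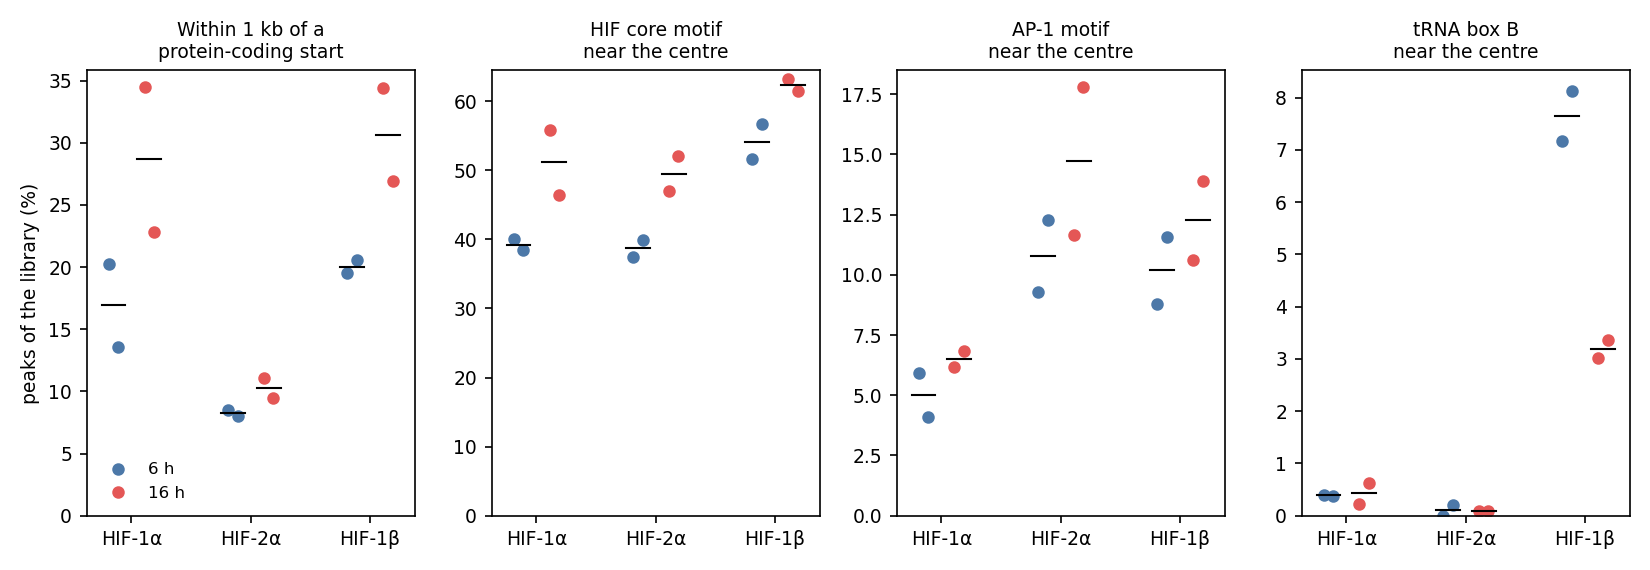
Share of each library's peaks within 1 kb of a protein-coding start, with an HRE core, with an AP-1 motif and with a box B of tRNA genes, the last 3 within 100 bp of the peak centre. Points are libraries, black lines the mean of the 2 replicates. Promoter and HRE shares are higher at 16 h with each antibody, and the box B share is lower at 16 h with HIF-1β only (7.17% and 8.12% against 3.02% and 3.35%).

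The lost HIF-1β sites often held a motif of tRNA genes. The window printed for the leading lost site holds the internal promoter element of tRNA genes that is called box B and binds the RNA polymerase III factor TFIIIC, here searched on both strands as GGTTCGA followed, after any 2 bases, by CC. This search was chosen after those sites were seen. The motif was at 17 of 66 lost HIF-1β sites (25.8%, 95% interval 15.8% to 38.0%), 44 of 366 kept sites (12.02%, 8.87% to 15.8%) and 4 of 460 gained sites (0.870%, 0.237% to 2.21%). All 3 named lost sites are among the 17. Unlike the printed window, 11 of the 17 lost sites with a box B also held an HRE core. So did 27 of the 44 kept and 3 of the 4 gained ones. Flanking windows held it in 0.107% of cases. HIF-1α had it at 2 of 302 sites, both kept, and HIF-2α at none of 424. By library, 92 and 103 HIF-1β peaks held a box B at 6 h and 41 and 60 at 16 h, against 3 to 6 peaks in each HIF-1α library and 0 to 3 in each HIF-2α library. The HIF-1β times did not overlap.

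HIF-1β sites with a box B were mostly without HIF-α. Of the 17 lost ones, 0 had a peak in any of the 8 HIF-1α and HIF-2α libraries (an upper 95% limit of 19.5%), and of the 44 kept ones 15 had (34.1%, 20.5% to 49.9%). Without a box B the shares were 59.2% of 49 lost sites (44.2% to 73.0%) and 90.1% of 322 kept sites (86.3% to 93.1%). The kept box B sites stood at a median percent rank of 14.1 at 6 h and 36.0 at 16 h, while the other kept sites stood at 16.6 and 11.98. They included 11 sites on chromosome 6, and 7 of the 17 lost ones were also on chromosome 6, by H2BC13, HMGN4, H4C8 and PRSS16 among others. In the 14 HIF-1β libraries outside the comparison the share of peaks with a box B ranged from 0% to 10.2%. It was 6.67% and 10.2% at 0.5% oxygen for 48 h and 9.17% and 7.85% at 3% for 6 h, but 0.0646% and 0.121% in wild-type HKC-8 cells of the knockout experiment. Without box B sites HIF-1β had 322 kept, 456 gained and 49 lost sites.

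HIF-1β was read at the isoforms' sites as an antibody that had no part in defining them. At the 67 gained HIF-1α sites with no 6 h HIF-1α peak, the HIF-1β libraries had a peak at 40.3% and 38.8% of sites at 6 h and at 76.1% and 82.1% at 16 h. At the 64 such HIF-2α sites the shares were 17.2% and 34.4% at 6 h and 59.4% and 76.6% at 16 h. The 6 h and 16 h values did not overlap at either set. At kept sites HIF-1β was already at 90.2% and 93.5% of HIF-1α sites at 6 h and reached 98.4% and 95.9% at 16 h, and at HIF-2α sites it was at 64.5% and 71.0%, then 76.3% and 81.7%. HIF-1β was also found more often at 16 h over all lost sites, at 40% and 35% of 40 HIF-1α sites at 6 h and 52.5% and 60% at 16 h, and at 25% and 35.2% of 88 HIF-2α sites, then 38.6% and 50%. At lost sites with no 16 h peak the values of the times overlapped. It was found at 3 and 2 of 12 HIF-1α sites at 6 h and at 1 and 4 at 16 h, and at 7 and 6 of 26 HIF-2α sites at 6 h and 8 and 6 at 16 h. Across whole lists, the HIF-α peaks that met a HIF-1β peak of the same time were 16.9% and 14.1% at 6 h and 37.02% and 31.1% at 16 h for HIF-1α, and 15.4% and 18.3%, then 30.1% and 50.6%, for HIF-2α. HIF-1β lists also held more peaks at 16 h (1356 and 1790 against 1283 and 1269), and the part of this was not tested.

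HIF-1β sites could be split by the isoform found in both replicates of either time. Of the 366 kept sites, 93 (25.4%) had HIF-1α only, 75 (20.5%) HIF-2α only, 82 (22.4%) both and 116 (31.7%) neither. Of the 460 gained sites, 64 (13.9%) had HIF-1α only, 99 (21.5%) HIF-2α only, 6 (1.30%) both and 291 (63.3%) neither. Of the 66 lost sites, 60 (90.9%) had neither. Neither means that no isoform was called in both replicates of a time, not that HIF-α was absent. Among sites without a box B, 77.2% of 456 gained and 59.2% of 49 lost sites had a peak in at least 1 of the 8 HIF-1α and HIF-2α libraries. Gained sites with HIF-1α only were promoter-proximal in 71.9% of cases and those with HIF-2α only in 11.1%, close to the 68.8% and 6.67% of the kept sites. The gained sites with neither isoform still held an HRE core in 73.5% of cases.

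The same sites were looked up in HKC-8 libraries that had no part in defining them. In wild-type cells of the knockout experiment, also at 0.5% oxygen for 16 h, gained sites with no 6 h peak were found at 64.2% and 56.7% of 67 sites with HIF-1α, 87.5% and 85.9% of 64 with HIF-2α and 73.7% and 78.2% of 266 with HIF-1β. Lost sites with no 16 h peak were found at 16.7% and 8.33% of 12, 57.7% and 57.7% of 26 and 28.6% and 23.8% of 21. For HIF-1β the 95% intervals lay apart (68.0% to 78.9% and 72.7% to 83.0% for gained, 11.3% to 52.2% and 8.22% to 47.2% for lost sites). They also lay apart within each HIF-1α library (51.5% to 75.5% against 2.09% to 48.4%, and 44.04% to 68.8% against 0.211% to 38.5%) and overlapped in replicate 2 of HIF-2α (75.0% to 93.4% against 36.9% to 76.6%). Gained sites were found more often than lost ones in all 6 of these libraries, in the full classes too. Of the 21 lost HIF-1β sites with no 16 h peak 5 held a box B. All lost HIF-1β sites were at 37.9% and 34.8%, and without box B sites at 44.9% in each library. The gained ones were at 75.2% and 79.6%, and without box B sites at 75.9% and 80.3%.

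Other times and oxygen levels gave no such order. Taking all gained and lost sites, the gained share was the higher in 10 of 18 outside libraries, 1 of 6 of them at 48 h, 3 of 6 at 3% for 6 h and 6 of 6 in the knockout experiment. The lists of the knockout experiment were longer, with 1529 to 8268 peaks against 237 to 1376 in the others. Time, experiment and list length thus changed together, and their parts were not tested. At 3% oxygen for 6 h, lost HIF-1β sites with no 16 h peak were found at 57.1% and 47.6% and gained ones with no 6 h peak at 14.3% and 15.4%. Of these lost sites 5 held a box B. Among lost HIF-1β sites without a box B, 38.8% were found in each of the 3% libraries, against 21.1% and 22.6% of gained ones. At 48 h the replicates differed, with gained HIF-2α sites found at 56.3% in replicate 1 and 2.99% in replicate 2, whose list held 237 peaks. Kept sites had the highest share of the 3 classes in 16 of the 18 libraries. The exceptions were both HIF-1β libraries of the knockout experiment, where kept sites were at 70.2% and 72.4% and gained ones at 75.2% and 79.6%, or 76.1% and 80.1% against 75.9% and 80.3% without box B sites.

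**Figure D5:**
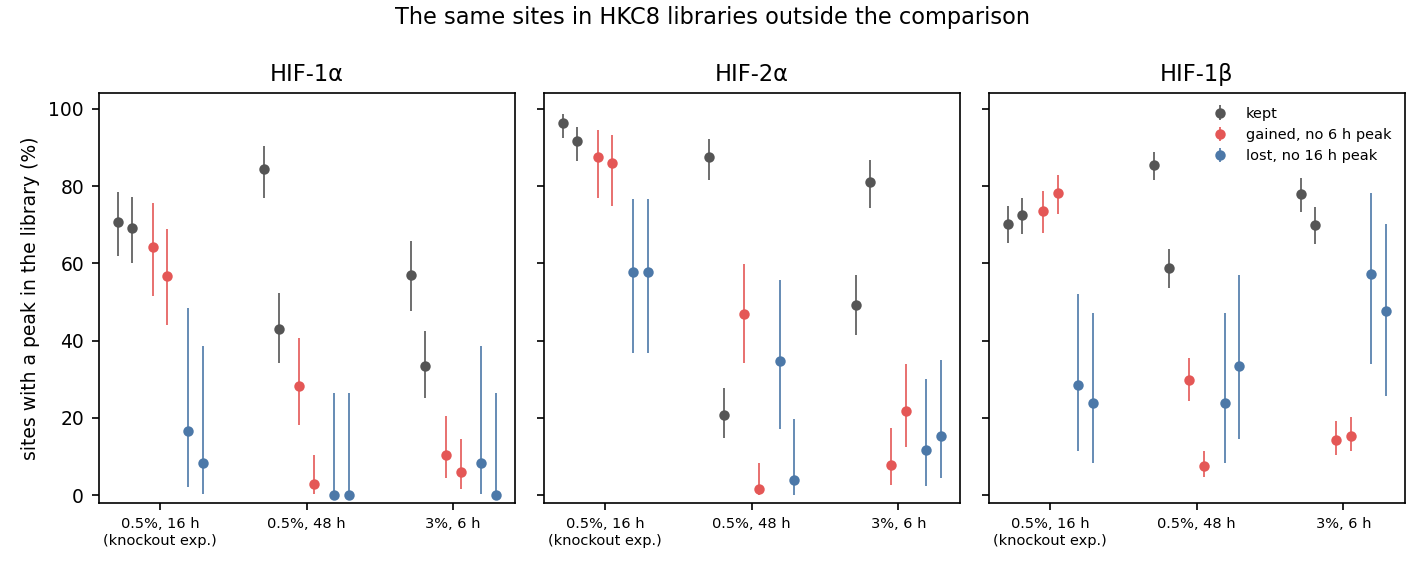
Share of kept sites, gained sites with no 6 h peak and lost sites with no 16 h peak that had a peak in HKC-8 libraries outside the comparison, for the same antibody. Each point is 1 library and bars are 95% exact binomial intervals. In the knockout experiment's wild-type cells, also at 0.5% oxygen for 16 h, gained sites lie above lost ones with each antibody, and at 3% for 6 h the order is the reverse for HIF-1β.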

How the data were processed

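Peak lists of 12 ChIP-seq libraries were analysed, each called on a single library. Per the labels and the study's methods, the authors trimmed reads (Trim Galore 0.3.3), aligned them to GRCh37 (BWA 0.7.5a-r405), removed reads of low mapping quality (SAMtools 0.1.19) and reads in black-listed regions (bedtools 2.17.0), marked duplicates (Picard 1.106) and called peaks with MACS, whose version is not given in the sources used here. The value deposited with each peak is the caller's score, 50 at least. The lists hold no read depth, so no value could be set against it. Groups followed the sample titles, and no 2 lists were identical.

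Peaks on chromosomes 1 to 22, X and Y were merged into regions when they overlapped by at least 1 bp. Ranks are by score within a list, and the percent rank is the rank as a percentage of the list. Starts were those of 89204 protein-coding transcripts of GENCODE 44 mapped to GRCh37. Motifs were searched on both strands within 100 bp of the centre of the best-ranked peak. Values per library were compared by exact permutation tests, and p-values of the 5 tests received a Benjamini-Hochberg adjustment. Shares carry 95% Clopper-Pearson intervals. Named sites are, per antibody, the 4 kept sites with the best mean percent rank over the 4 libraries, and the 3 gained and 3 lost sites with the best mean rank among those with no peak at the other time, plus genes of the lists with a site within 10 kb of a start. The members, lists and tests were chosen with earlier results of these data known. Alternatives were a minimum overlap (50% of the shorter peak), 200 bp windows, a score of at least 100, lists of equal length, the upper 50%, the Jaccard index, a start within 5 kb or of all 254376 transcripts, motifs in the whole peak, a replicate block, each antibody alone and leaving out libraries. The box B search and the alternatives for named sites and gene lists were added after seeing the data. The scripts were tested on simulated lists. Analyses used Python 3.11.15, SciPy 1.17.1, pysam 0.24.0 and samtools 1.23.1.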

Additional observations from a re-analysis of the deposited data

Results flagged for a closer look

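The number of peaks moved in opposite directions with the antibodies. From 6 h to 16 h it changed by -271 peaks on average with HIF-1α and by -327.5 with HIF-2α, and by 297 with HIF-1β. Every 16 h library of the isoforms held fewer peaks than every 6 h library of the same antibody, and both 16 h libraries of HIF-1β held more. With HIF-1α the gap was narrow, at 1490 and 1312 peaks at 6 h and 1310 and 950 at 16 h. The difference between antibodies was not tested. The 46 peaks outside chromosomes 1 to 22, X and Y, on mitochondrial or unplaced sequence, were not used in the comparisons.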

How the results depend on the processing

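Class counts stayed within 1.5 times of those reported with overlap of 50% of the shorter peak and with lists of equal length. With 200 bp windows 117 HIF-1β sites were lost, and with the upper 50% of each list 253 were gained. With a score of at least 100, kept, gained and lost sites numbered 56, 55 and 6 for HIF-1α, 66, 61 and 22 for HIF-2α, and 148, 177 and 38 for HIF-1β, since fewer peaks entered. Without replicate 1 or 2, so that 1 list defined each time, counts for HIF-1α were 147 to 256 kept, 802 to 1054 gained and 1163 to 1232 lost, for HIF-2α 232 to 363, 687 to 957 and 1111 to 1174, and for HIF-1β 455 to 620, 901 to 1167 and 634 to 809.

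Among the tests of 16 h minus 6 h, promoter and HRE shares reversed with a score of at least 100 (-0.89 and -2.17 points), as did AP-1 (-0.48 points), and the cause was not tested. The promoter share no longer passed the threshold of 0.05 with lists of equal length (7.85 points, exact p = 0.0648) or without HIF-1α 6 h replicate 2 (7.01 points, exact p = 0.0648). Leaving out a replicate number or 1 library, the difference was 5.68 to 10.6 points for promoters, 8.31 to 12.3 for HRE and 1.49 to 3.54 for AP-1. With a replicate number left out the smallest possible exact p is 0.25, so none could pass. By antibody (HIF-1α, then HIF-2α, then HIF-1β) it was 11.8, 2.00 and 10.6 points for promoters and 11.9, 10.8 and 8.19 points for HRE, with too few libraries to pass. AP-1 passed with motifs in the whole peak (10.8 points, exact p = 0.0185), without HIF-2α 16 h replicate 1 (3.54 points, exact p = 0.0370) and with the replicate block (2.51 points, exact p = 0.0312), which changed no other call. Deviations of same-numbered libraries correlated at 0.0142 to 0.0269 over all regions. Of these regions, 71.1% to 91.4% had a peak in 1 library only. Regions in exactly 2 libraries of different times numbered 52 and 5 (same-numbered) against 0 and 13 (crossed) with HIF-1α. They numbered 14 and 77 against 26 and 20 with HIF-2α, and 16 and 82 against 29 and 29 with HIF-1β. Whether replicate numbers pair the libraries was therefore not decided. Overlap within minus between times was -0.55 points with HIF-2α alone and passed with a score of at least 100 (5.65 points) and equal length (3.38 points). The share of one time passed with 200 bp windows (52.2%), a score of at least 100 (56.4%) and equal length (53.6%). Leaving out 1 library left no pairing for these 2 tests. Over 4 alternatives, named sites had a peak in as many libraries as before in 108 cases and not in 12 (settings for these sites were chosen after seeing the data). The lists hold no read depth, so a site bound less and a shallower library cannot be told apart.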
